A study of Mus musculus with 22 samples.

Results

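Expression of the genes of elastic fibres and microfibrils was followed in granulation tissue growing into a viscose cellulose sponge (VCS) under the dorsal skin of wild type (WT) and Mmp13-/- mice. The 9 genes considered were Eln, Fbn1, Fbn2, Fbln1, Fbln2, Fbln5, Mfap2, Mfap4 and Mfap5. They were measured by every probe set of the array that its annotation gives to one of them alone. This gave 16 probe sets for 8 of the 9 genes, out of 45037 probe sets and 18193 genes in all. No probe set was annotated to Fbn1 alone, and Fbn1 is not analysed here. Tissue was taken 7, 14 and 21 d after implantation, from 3 WT and 3 Mmp13-/- mice at 7 d and from 4 of each genotype at 14 d and at 21 d. Each of the 22 arrays is of its own mouse. The mice were 5 to 8 weeks old, and the RNA came from the ends of the sponge. The labels give a mixed C57BL/6 x 129 background to both genotypes, while the series' description says that the Mmp13-/- line had been backcrossed for at least 7 generations and that the WT mice descended from its heterozygotes. All mice of both genotypes carried the implant, so the comparisons hold no tissue without a sponge.

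Elastic fibres give skin, lung and arteries their recoil. They consist of a core of cross-linked elastin laid down on a scaffold of microfibrils, which are built from fibrillins and carry small associated glycoproteins. Fibulins link the elastin core to the scaffold and to neighbouring matrix, and lysyl oxidases cross-link the elastin. Scar and granulation tissue are known for containing few mature elastic fibres compared with uninjured dermis, and microfibril components commonly appear before elastin where such fibres form.

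Values are log2 signals of Affymetrix 3' expression arrays of the mouse genome, so a difference of 1 is a doubling of signal. Signals were compared within a probe set and never between probe sets. The arrays fall into 2 hybridization series with different RNA input and labelling kits. Series 1 holds both 7 d groups and replicates 1 to 3 of both 14 d groups, and series 2 holds replicate 4 of both 14 d groups and both 21 d groups. Array medians ran from 4.16 to 4.27. The signal of Mmp13, which encodes a collagenase, was lower in Mmp13-/- tissue on each day, by log2 differences of -2.32, -3.41 and -3.26 at 7, 14 and 21 d, and no Mmp13-/- array reached the WT level of its day. The part of the gene under this probe set relative to the deletion is not given in the sources used here. Keratinocyte markers stood apart on replicates 1 and 3 of WT at 14 d, with list means of 5.03 and 5.25 against 3.49 to 4.12 on every other array, and WT 7 d replicate 1 had the lowest means of the endothelial and the myofibroblast lists, 5.57 and 5.90. The signals of WT replicate 3 at 21 d had the narrowest spread, with an SD of 2.19 against 2.25 to 2.34 elsewhere.

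All 8 measured genes had their brightest probe set above the median signal of the array, 4.22, as did 14 of the 16 probe sets. The exceptions were the second probe sets of Fbln2 and Fbln5, at mean signals of 2.88 and 3.45. A gene is described by its brightest probe set unless stated otherwise. Fbn2, Fbln5, Mfap2 and Mfap4 had their highest group mean in WT tissue at 21 d, and Fbln2 as well, although neighbouring groups of Fbln2 overlapped throughout. Eln and Fbln1 had theirs in WT tissue at 14 d. Neighbouring groups of Fbln1 also overlapped throughout, and its second probe set, 1422540_at, had its highest mean, 6.84, in WT tissue at 21 d. These are means of the deposited values, in which 14 and 21 d differ in hybridization series, and with the series in the model Eln and Fbln1 in WT tissue were at 0.11 and 0.21 at 21 d relative to 14 d, neither called. Mfap5 alone had its highest mean at 7 d, in WT tissue, and its neighbouring groups overlapped throughout. WT tissue at 7 d held the lowest mean of each gene except Mfap5, which was lowest in Mmp13-/- tissue at 14 d.

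**Figure D1:**
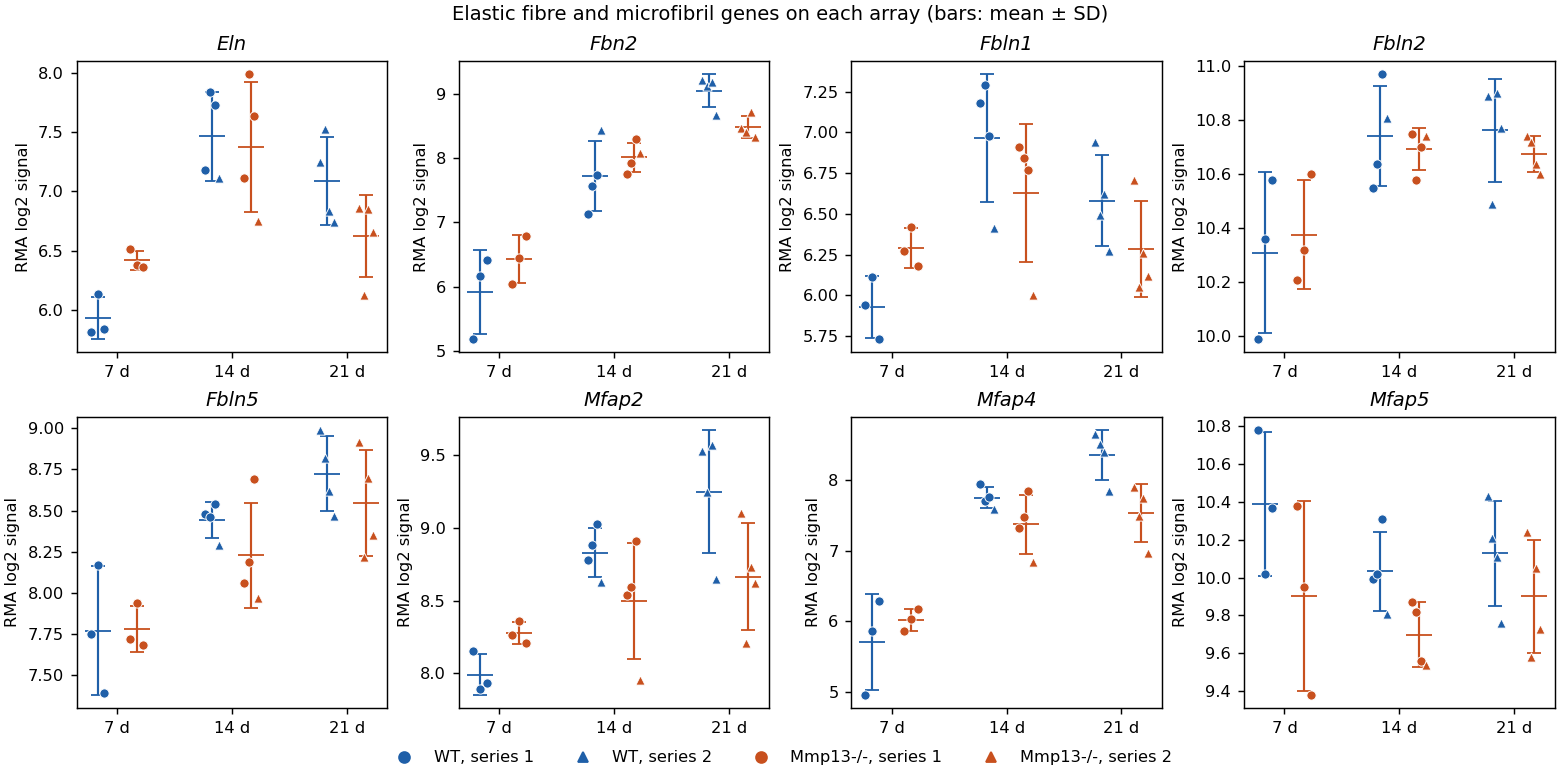
RMA log2 signal of the brightest probe set of each measured gene on the 22 arrays, by day and genotype. Circles are arrays of hybridization series 1, triangles those of series 2, and bars give the group mean ± SD (n = 3 at 7 d and n = 4 later). The 7 d values of Mfap4 and Fbn2 lie below all later values, and those of Mfap5 do not.

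The first question was how these genes change as granulation tissue grows from 7 to 14 d. In WT tissue 5 of the 8 genes rose and none fell, namely Mfap4, Eln, Fbn2, Fbln1 and Mfap2, by 1.95-fold to 4.49-fold. Over the whole array 2.54% of genes were called in either direction and 1.63% were called higher. A gene was called when its limma p-value, after Benjamini-Hochberg adjustment across the array, was under 0.05. The 2 days did not overlap for 6 of the 8 genes in WT tissue and for 4 in Mmp13-/- tissue, with the 14 d values higher each time, as was so for 7.55% and 7.86% of all genes. Of the same 8 genes 3 rose in Mmp13-/- tissue, Mfap4, Fbn2 and Eln, against 0.945% of all genes called in either direction and 0.462% called higher. The authors had already listed Eln, Fbn2 and Fbln1 as upregulated over this step in WT tissue, from the same arrays. The set was chosen with earlier results of these data known. The shares of all genes therefore describe the array and cannot decide whether the set rose more often than other genes. The median log2 difference of the 8 genes was 1.10 in WT and 0.53 in Mmp13-/- tissue, whereas that of all genes was within 0.01 of 0 in both. In bulk tissue, a change in the number of cells that express a gene and a change in RNA per cell cannot be told apart.

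Eln encodes tropoelastin, the soluble precursor of the elastin core. Its log2 signals were 5.81, 6.13 and 5.84 in WT tissue at 7 d and 7.18, 7.84, 7.73 and 7.11 at 14 d. The Mmp13-/- signals were 6.51, 6.38 and 6.36 at 7 d and 7.11, 7.99, 7.64 and 6.75 at 14 d. Days did not overlap in either genotype, and at 7 d all 3 Mmp13-/- arrays lay above the 3 WT arrays. The log2 difference between the days was 1.70 in WT (SE 0.23, adjusted p = 0.000464) and 1.12 in Mmp13-/- tissue (SE 0.23, adjusted p = 0.0263). The dimmer second probe set of Eln, 1420854_at, rose in WT tissue as well, by 0.71 (adjusted p = 0.0390), and its difference in Mmp13-/- tissue was 0.37 (adjusted p = 0.696).

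Fbn2 encodes fibrillin-2, a microfibril backbone protein known from developing elastic tissues. Its log2 signals in WT tissue were 5.18, 6.16 and 6.42 at 7 d and 7.13, 7.57, 7.74 and 8.43 at 14 d. Those in Mmp13-/- tissue were 6.04, 6.45 and 6.78 at 7 d and 7.75, 7.93, 8.29 and 8.08 at 14 d. No 14 d array of either genotype fell within the 7 d range. The differences were 1.67 in WT (SE 0.26, adjusted p = 0.00192) and 1.46 in Mmp13-/- tissue (SE 0.26, adjusted p = 0.0105), and the other probe set of Fbn2, 1422831_at, rose by 1.66 and 1.59.

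Among the microfibril-associated proteins, Mfap4 had the largest difference of the 8 genes in WT tissue. Mfap4 encodes a fibrinogen-related protein that binds elastin and microfibrils. In WT tissue it was at 4.96, 5.86 and 6.29 at 7 d and at 7.95, 7.70, 7.77 and 7.60 at 14 d. The Mmp13-/- arrays were at 5.86, 6.03 and 6.18 at 7 d and at 7.33, 7.48, 7.85 and 6.84 at 14 d. Both genotypes thus showed a gap between the days, with the lowest 14 d array in the Mmp13-/- group. The differences were 2.17 in WT (SE 0.27, adjusted p = 0.000182) and 1.47 in Mmp13-/- tissue (SE 0.27, adjusted p = 0.0116). WT 7 d replicate 1 was low for both Mfap4 and Fbn2, and without it the WT differences were 1.80 and 1.30 and all 5 genes were still called.

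Mfap2 encodes a small glycoprotein that binds fibrillin. It was at 8.15, 7.89 and 7.93 in WT tissue at 7 d and at 8.78, 8.88, 9.03 and 8.63 at 14 d, with no overlap. Its Mmp13-/- values were 8.26, 8.36 and 8.21 at 7 d and 8.54, 8.59, 8.91 and 7.95 at 14 d, where replicate 4 at 14 d lay below every 7 d array. The difference was 0.96 in WT (SE 0.21, adjusted p = 0.0169) and 0.35 in Mmp13-/- tissue (SE 0.21, adjusted p = 0.998). The second probe set of Mfap2, 1447833_x_at, gave 0.48 in WT (adjusted p = 0.0827) and 0.30 in Mmp13-/- tissue (adjusted p = 0.668), neither called. On that probe set the days did not overlap in either genotype, and replicate 4 was the highest 14 d array in both. Without replicates 1 and 3 of WT at 14 d, where keratinocyte markers were high, the WT difference of Mfap2 was 1.03 and its adjusted p 0.151, and the calls of Eln, Fbn2, Fbln1 and Mfap4 remained. Mfap5, which encodes the other glycoprotein of this pair, had overlapping days in both genotypes, with differences of -0.29 in WT (SE 0.22) and -0.14 in Mmp13-/- tissue (SE 0.22), neither of them called.

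Of the 3 fibulins measured, Fbln1 was called in WT tissue and none in Mmp13-/- tissue, and differences between the fibulins were not tested. Fbln1, which encodes a fibulin of the elastin core that also binds fibronectin, was at 5.94, 6.11 and 5.73 in WT tissue at 7 d and at 7.18, 7.29, 6.98 and 6.41 at 14 d. The corresponding Mmp13-/- values were 6.27, 6.42 and 6.18 at 7 d and 6.91, 6.84, 6.77 and 6.00 at 14 d. Replicate 4, the array of hybridization series 2, was the lowest 14 d array in both genotypes, and in Mmp13-/- tissue it lay below the 7 d range. The difference was 1.24 in WT (SE 0.16, adjusted p = 0.000302) and 0.54 in Mmp13-/- tissue (SE 0.16, adjusted p = 0.204). Within series 1 alone the Mmp13-/- difference of Fbln1 was 0.55 and was called (adjusted p = 0.0397). A second probe set of Fbln1, 1422540_at, rose by 1.08 in WT tissue, and the third, 1439688_at, gave 0.39 without a call.

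Fbln5 encodes a fibulin that tethers elastin to microfibrils and is required for elastic fibre assembly in mice. Its days did not overlap in WT tissue (7.39 to 8.17 at 7 d and 8.29 to 8.54 at 14 d) or in Mmp13-/- tissue (7.68 to 7.94 and 7.97 to 8.69). Its difference in WT tissue was 0.74 (SE 0.20, adjusted p = 0.0598), and in Mmp13-/- tissue it was 0.52 (SE 0.20, adjusted p = 0.444). Fbln2, whose product binds elastin and fibronectin, gave 0.41 in WT (SE 0.14, adjusted p = 0.211) and 0.30 in Mmp13-/- tissue (SE 0.14, adjusted p = 0.768), with overlapping days in both.

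**Figure D2:**
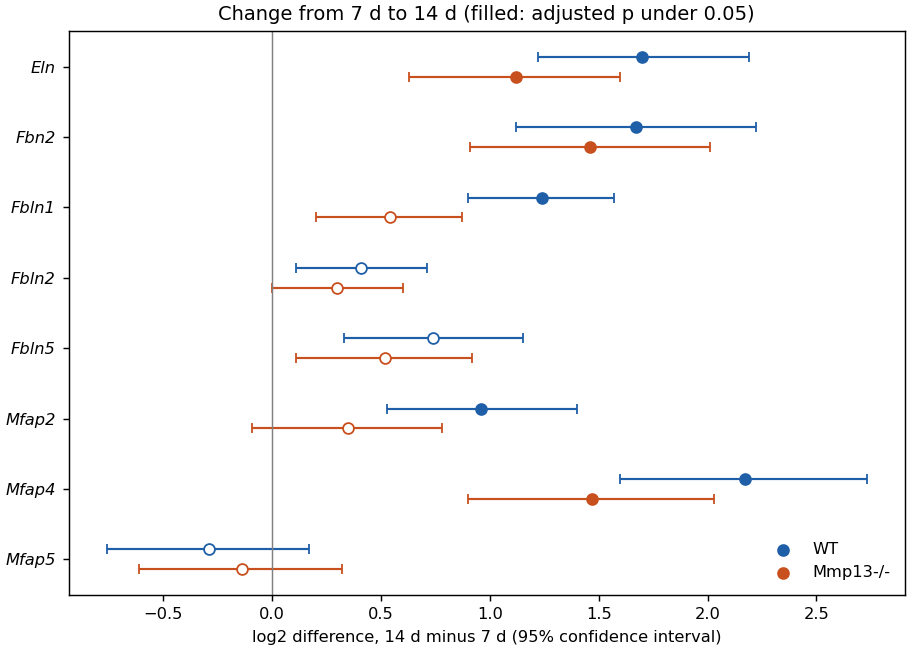
Log2 difference between 14 d and 7 d for the brightest probe set of each gene in WT and Mmp13-/- tissue, with the 95% confidence interval of the limma fit. Filled points have an adjusted p under 0.05, and these are 5 genes in WT and 3 in Mmp13-/- tissue.

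The call count in Mmp13-/- tissue rested on single arrays. It was 0 without Mmp13-/- replicate 1 at 7 d or without Mmp13-/- replicate 3 at 14 d, and 1 without Mmp13-/- replicate 2 at 7 d, although the differences of Eln, Fbn2 and Mfap4 stayed between 0.93 and 1.64 whichever array was left out. In WT tissue between 4 and 6 genes were called when any 1 array was left out, and within hybridization series 1 the same count of 5 was reached in WT, with 4 in Mmp13-/- tissue.

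Markers of other cell types moved between the same days. Of 10 endothelial markers, 9 had a positive WT difference and 2 were called, Eng and Plvap, with a list median of 1.27. The list means ran from 5.57 to 7.17 on the WT arrays at 7 d and from 6.94 to 7.84 at 14 d, and in Mmp13-/- tissue from 6.59 to 7.18 and from 6.62 to 7.20, with 7 of 10 positive and a median of 0.16. Of 10 markers of myofibroblasts and smooth muscle, 9 had positive differences in each genotype, with medians of 0.50 and 0.33 and with Tagln and Myl9 called in both and Acta2 in WT alone. Their list means ran from 5.90 to 7.07 at 7 d and from 7.11 to 7.64 at 14 d in WT, and from 6.48 to 6.84 and from 7.05 to 7.51 in Mmp13-/- tissue. Of 11 fibroblast markers, 4 were positive in WT with a median of -0.07, and 1 was called, higher at 14 d. In Mmp13-/- tissue 1 was positive with a median of -0.48, and 2 were called, both lower at 14 d. Of 12 keratinocyte markers 11 were positive in WT (median 0.63), as were 8 of 8 skeletal muscle markers (median 0.73), and 5 of 6 adipocyte markers were negative (median -1.09). In Mmp13-/- tissue 9 of 12 keratinocyte markers were positive (median 0.10) while Dmkn fell by 2.21, as were 7 of 8 skeletal muscle markers (median 0.27), and 5 of 6 adipocyte markers were negative (median -0.79). The part of these cell types in the changes of the elastic fibre genes was not tested.

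Promoter sequence was available for 5 of the 9 genes. The upstream windows are shown for the called genes Fbln1 and Mfap2 and for Fbln2 and Fbln5, which were not called. Each window is the 250 bases before the most upstream listed start site, from RefSeq on GRCm38.p6, written 5′ to 3′ on the gene's strand. Capitals mark matches on either strand to GGGCGG (the GC box, CCGCCC on the other strand) and to CAGAC (the core of a SMAD binding element, GTCTG on the other strand). TATAAA was searched as well, and these 3 motifs do not overlap one another in the windows shown.
Fbln1, chr15:85205699-85205948, plus strand: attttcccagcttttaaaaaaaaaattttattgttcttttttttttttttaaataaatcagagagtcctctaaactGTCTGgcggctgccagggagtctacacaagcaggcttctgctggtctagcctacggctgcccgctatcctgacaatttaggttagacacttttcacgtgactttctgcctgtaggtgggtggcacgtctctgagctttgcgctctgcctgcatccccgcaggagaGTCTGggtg
Mfap2, chr4:141010174-141010423, plus strand: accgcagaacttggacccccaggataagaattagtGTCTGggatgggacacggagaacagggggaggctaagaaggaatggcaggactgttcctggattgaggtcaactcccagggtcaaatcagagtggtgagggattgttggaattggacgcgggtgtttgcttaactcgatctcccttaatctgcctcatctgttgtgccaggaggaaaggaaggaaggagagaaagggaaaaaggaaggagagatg
Fbln2, chr6:91212514-91212763, plus strand: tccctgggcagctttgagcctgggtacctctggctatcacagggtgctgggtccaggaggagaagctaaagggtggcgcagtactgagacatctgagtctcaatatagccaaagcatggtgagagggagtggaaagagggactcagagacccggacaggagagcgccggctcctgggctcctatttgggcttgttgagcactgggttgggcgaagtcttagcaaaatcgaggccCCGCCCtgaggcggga
Fbln5, chr12:101819120-101819369, minus strand: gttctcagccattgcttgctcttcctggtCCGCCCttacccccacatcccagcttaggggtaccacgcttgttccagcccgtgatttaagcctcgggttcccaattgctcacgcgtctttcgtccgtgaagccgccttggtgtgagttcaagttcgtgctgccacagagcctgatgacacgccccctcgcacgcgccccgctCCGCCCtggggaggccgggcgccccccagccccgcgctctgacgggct
The Fbln1 window holds 2 matches to CAGAC, and the Mfap2 window holds 1. The Fbln2 window holds 1 match to GGGCGG and the Fbln5 window 2, with none to CAGAC in either. These counts depend on the start site, and no difference between called and uncalled genes was tested. The window of the other listed start site of Mfap2 holds 2 matches to GGGCGG and 0 to CAGAC, that of Fbln5 holds 0 and 2, and that of Fbln1 holds 1 and 2. TATAAA is in none of the 4 windows. Of all 32851 promoter windows of this length, 42.2% hold CAGAC, 32.7% hold GGGCGG and 12.4% hold TATAAA. Eln, Fbn2, Mfap4 and Mfap5 had no promoter entry.

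The second question was whether the genes differ between Mmp13-/- and WT tissue. None of the 8 genes was called in limma on any day, where 0.011% of all genes were called at 7 d, 0.022% at 14 d and 0.044% at 21 d. At an unadjusted p under 0.05, 2 of the 8 passed at 7 d, 1 at 14 d and 4 at 21 d, against 2.99%, 4.76% and 12.1% of all genes. Differences were positive for 7 of 8 genes at 7 d, for 1 of 8 at 14 d and for 0 of 8 at 21 d, whereas 51.2%, 49.5% and 52.3% of all genes had differences below 0 on these days. The medians of the 8 genes were 0.30, -0.27 and -0.38. The count at 7 d depended on WT replicate 1, without which Mfap4 was at -0.05, Fbln2 at -0.09, Fbln5 at 0.00 and Fbn2 at 0.13 in place of 0.50, while Eln, Fbln1 and Mfap2 were at 0.43, 0.37 and 0.37.

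At 7 d the groups did not overlap for 3 of the 8 genes, as for 8.77% of all genes. The values of Fbln1 and Eln in Mmp13-/- tissue lay wholly above those in WT tissue, with log2 differences of 0.36 (SE 0.17, unadjusted p = 0.0416) and 0.49 (SE 0.24, unadjusted p = 0.0548). Mfap2 did not overlap either, at 0.29 (SE 0.21). The second probe set of Mfap2, 1447833_x_at, did overlap, at 0.11 (SE 0.14). That of Eln, 1420854_at, did not overlap but gave 0.12 (SE 0.18). The other probe sets of Fbln1 overlapped, 1422540_at at 0.46 (SE 0.21) and 1439688_at at 0.20 (SE 0.24). With 3 arrays against 3, the smallest p of an exact permutation test is 0.1. Mfap5 was at 10.78, 10.02 and 10.37 in WT and at 10.38, 9.95 and 9.38 in Mmp13-/- tissue. Its groups overlapped, with the lowest array in the Mmp13-/- group and the highest in WT. The difference was -0.49 (SE 0.23, unadjusted p = 0.0483). Of 10 endothelial markers 9 were positive at 7 d, with a median of 0.62 and none called, and list means ran from 5.57 to 7.17 in WT and from 6.59 to 7.18 in Mmp13-/- tissue. The part of these cells in the 7 d differences was not tested.

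At 14 d Fbln1 had the smallest unadjusted p, 0.0312, with a difference of -0.34 (SE 0.14) and overlapping groups. The other probe sets of Fbln1 had 95% confidence intervals that included 0. These were 1422540_at, at -0.09 (-0.47 to 0.29), and 1439688_at, at -0.29 (-0.73 to 0.15). Mfap4, Mfap2 and Mfap5 were at -0.38, -0.33 and -0.34, with 95% confidence intervals that included 0. Fbn2 was the gene with a positive difference, 0.29 (95% confidence interval -0.20 to 0.79). The second probe set of Mfap5, 1449082_at, did not overlap between the genotypes and gave -0.54 (SE 0.20, unadjusted p = 0.0152, adjusted p = 0.999). Most markers of every listed cell type except macrophages had differences below 0 at 14 d as well. Negative were 6 of 6 adipocyte (median -0.30), 6 of 7 neutrophil (median -0.46) and 7 of 10 myofibroblast markers (median -0.08). The same was so for 5 of 8 skeletal muscle (median -0.20) and 4 of 6 T cell markers (median -0.01). Of 9 macrophage markers 7 were positive (median 0.06). All 10 endothelial markers were negative (median -0.27), as were 9 of 11 fibroblast markers (median -0.47, with the proteoglycan gene Lum called at -0.94, adjusted p = 0.0274) and 11 of 12 keratinocyte markers (median -0.74). List means ran from 6.94 to 7.84 in WT and from 6.62 to 7.20 in Mmp13-/- tissue for endothelial markers, from 10.15 to 10.50 and from 9.64 to 10.05 for fibroblast markers, and from 3.70 to 5.25 and from 3.49 to 3.71 for keratinocyte markers. Without WT replicates 1 and 3, where keratinocyte markers were high, Lum was not called and the differences of the 8 genes kept their signs, with Fbn2 at 0.11 and the others from -0.43 to -0.01. The part of these cell types in the 14 d differences was not tested.

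At 21 d the differences furthest from 0 were those of Mfap4, Mfap2, Fbn2 and Eln, none of them called. Mfap4 was at 8.66, 8.52, 8.40 and 7.85 in WT and at 7.91, 7.50, 7.75 and 6.97 in Mmp13-/- tissue. WT replicates 1 to 3 lay above every Mmp13-/- array, while WT replicate 4 lay just below the highest of them. The difference was -0.83 (SE 0.24, 95% confidence interval -1.33 to -0.32, adjusted p = 0.174), and the exact permutation test gave p = 0.0571, with 0.0286 the smallest it can give (two-sided).

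Mfap2 was at 9.53, 9.25, 9.57 and 8.65 in WT and at 9.10, 8.21, 8.73 and 8.62 in Mmp13-/- tissue, where 3 WT arrays again lay above all Mmp13-/- arrays. Its difference was -0.59 (SE 0.18, adjusted p = 0.209). Fbn2 was at 9.22, 9.12, 9.18 and 8.67 in WT and at 8.46, 8.40, 8.72 and 8.33 in Mmp13-/- tissue, with WT replicate 4 within the Mmp13-/- range. Its difference was -0.57 (SE 0.24, adjusted p = 0.349), and its other probe set gave -0.67 (adjusted p = 0.373). Eln was at 7.25, 7.53, 6.83 and 6.74 in WT and at 6.86, 6.12, 6.85 and 6.66 in Mmp13-/- tissue. Its genotypes overlapped in the range where WT replicates 3 and 4 lay, and the difference was -0.46 (SE 0.21, adjusted p = 0.382).

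The remaining genes at 21 d were closer to 0. Fbln1 gave -0.29 (95% confidence interval -0.60 to 0.01), Mfap5 -0.23 (-0.65 to 0.19), Fbln5 -0.18 (-0.54 to 0.19) and Fbln2 -0.09 (-0.36 to 0.18). The 4 arrays of Fbln5 ran from 8.47 to 8.99 in WT and from 8.22 to 8.92 in Mmp13-/- tissue, so that the groups lay almost on top of each other. The second probe set of Fbln1, 1422540_at, gave -0.42 (95% confidence interval -0.80 to -0.05) and was not called. Its genotypes did not overlap, and the exact permutation test gave p = 0.0286, the smallest it can give (two-sided). The second probe set of Mfap5, 1449082_at, gave -0.03. The dimmer probe sets did not all share these signs, since 1439688_at of Fbln1 gave 0.32, 1438375_at of Fbln2 gave 0.31 and 1446377_at of Fbln5 gave 0.17.

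**Figure D3:**
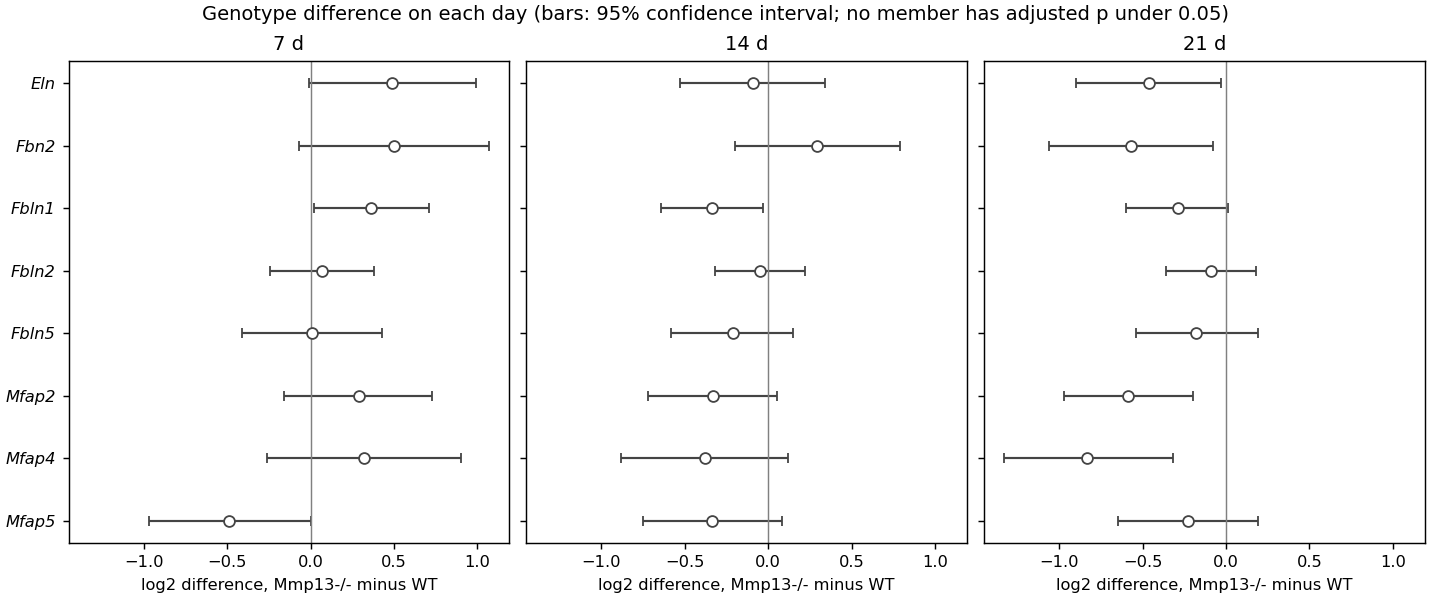
Log2 difference between Mmp13-/- and WT tissue for the brightest probe set of each gene at 7, 14 and 21 d, with the 95% confidence interval of the limma fit. At 7 d, 7 of 8 points lie right of 0 (Mfap4 and Fbln2 turn to -0.05 and -0.09 without WT replicate 1), and at 21 d all 8 lie left of 0, with no adjusted p under 0.05.

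Other measures differed between the 21 d arrays as well. Mmp13-/- replicate 2 and WT replicate 4 had the largest signal difference between the 3' and 5' probe sets of Actb in their groups, 0.86 and 0.69, and the lowest mean over the 8 genes, 8.10 and 8.40. Without Mmp13-/- replicate 2 the differences of Mfap4, Mfap2, Fbn2 and Eln were -0.81, -0.43, -0.54 and -0.30. Without WT replicate 4 they were -0.99, -0.79, -0.70 and -0.58, still with no call, the smallest adjusted p being 0.0535 for Mfap2. Without WT replicate 3, and with the other arrays quantile normalized again, they were -0.75, -0.43, -0.47 and -0.47. Of 11 fibroblast markers 8 were below 0 at 21 d, with a median of -0.36 and list means from 9.91 to 10.25 in WT and from 9.50 to 10.03 in Mmp13-/- tissue. Of 10 endothelial markers 9 were below 0, with a median of -0.42 and list means from 6.91 to 7.43 and from 6.60 to 6.96. The part of transcript integrity and of these cell types in the differences was not tested.

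Averaged over the 3 days, no gene of the set was called, against 0.0879% of all genes. Mfap5 had the smallest unadjusted p, 0.00958, with a mean difference of -0.35 (SE 0.12, adjusted p = 0.549) and negative values on each day. Its second probe set gave -0.39 (SE 0.12, adjusted p = 0.450). The means of Eln, Fbn2, Fbln1 and Fbln2 were between -0.09 and 0.08.

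Whether the change with time differed between genotypes was tested as an interaction. No gene of the set and no gene of the array was called from 7 to 14 d or from 14 to 21 d. At an unadjusted p under 0.05, 2 of the 8 passed for 7 to 14 d, against 3.06% of all genes. These were Fbln1, at -0.70 for Mmp13-/- relative to WT tissue (SE 0.22, unadjusted p = 0.00493, adjusted p = 1), and Mfap2, at -0.62 (SE 0.28, unadjusted p = 0.0406). The second probe set of Mfap2, 1447833_x_at, gave -0.18 (SE 0.18, unadjusted p = 0.342). The other probe sets of Fbln1, 1422540_at and 1439688_at, gave -0.55 and -0.49 (unadjusted p = 0.0623 and 0.143). For 14 to 21 d, 1 of 8 passed, against 6.43% of all genes. This was Fbn2, at -0.86 (SE 0.33, unadjusted p = 0.0179, adjusted p = 0.662), and its second probe set gave -1.01.

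The last question was how the genes change from 14 to 21 d. No gene of the set was called in WT tissue, where 0.561% of all genes were called, or in Mmp13-/- tissue, where 0.0495% were. At an unadjusted p under 0.05, 4 of the 8 passed in WT, against 15.6% of all genes, and 2 in Mmp13-/- tissue, against 14.5%. In WT tissue Mfap4 was at 0.95 (SE 0.32), Fbn2 at 0.94 (SE 0.31), Mfap2 at 0.79 (SE 0.24) and Fbln5 at 0.49 (SE 0.23), with adjusted p from 0.138 to 0.347. In Mmp13-/- tissue Mfap2 was at 0.54 (SE 0.24) and Fbln5 at 0.52 (SE 0.23), and Fbn2 was at 0.07 (95% confidence interval -0.58 to 0.73). Fbn2 was nonetheless higher on all 4 arrays of 21 d than on all 4 of 14 d in both genotypes as deposited, before the hybridization series was taken into account.

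This step depends on how the series is treated, since all 21 d arrays are of series 2 and a single 14 d array per genotype links the series. The shift between series 2 and series 1 was called for 11.5% of all genes and for 1 of the 8, Fbln1, at -0.79 (SE 0.17, adjusted p = 0.00297). It was -0.65 for Eln (SE 0.24, adjusted p = 0.0808), -0.50 for Mfap2, -0.46 for Mfap4 and 0.52 for Fbn2. Probe sets of a gene did not always share the shift. The second probe set of Fbln1, 1422540_at, was at 0.62 (SE 0.21, adjusted p = 0.0556) and 1447833_x_at of Mfap2 at 0.28, whereas 1420854_at of Eln was called at -0.57 (adjusted p = 0.0389). Without Mmp13-/- replicate 4 at 14 d the shift of Fbln1 was -0.74 and not called (adjusted p = 0.0847), and Eln was called at -0.76 or -0.75 when replicate 1 of WT or of Mmp13-/- tissue at 14 d was left out. When the series was left out of the model, Fbn2 was called in WT tissue, at 1.33 (adjusted p = 0.00383), and the WT values of Eln and Fbln1 turned to -0.38 each. Within series 2, where 1 array stands for each 14 d group, the WT values were 0.76 for Mfap4, 0.62 for Fbn2, 0.62 for Mfap2, 0.43 for Fbln5, 0.17 for Fbln1 and -0.02 for Eln.

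**Figure D4:**
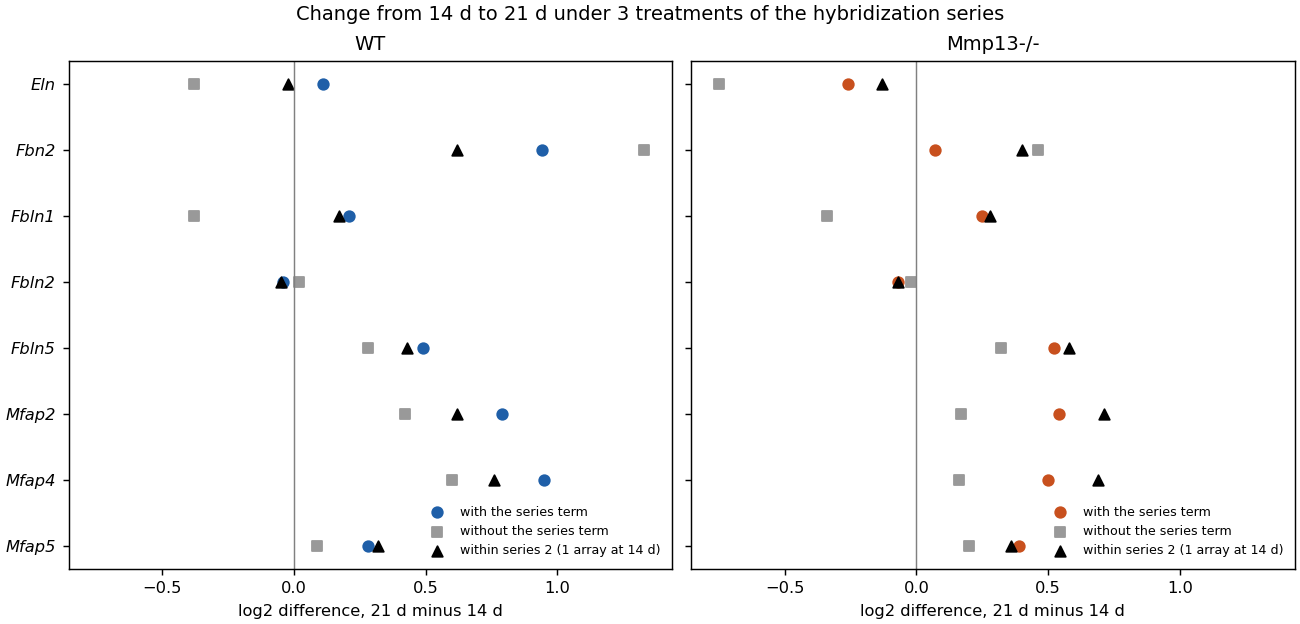
Log2 difference from 14 to 21 d for each genotype (WT left, Mmp13-/- right) with the hybridization series in the model (circles), without it (squares), and within series 2 alone (triangles, 1 array per 14 d group). Eln and Fbln1 lie left of 0 in both genotypes without the series term, and Fbn2, Fbln5, Mfap2, Mfap4 and Mfap5 lie right of 0 under all 3.

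Other genes act with elastic fibres. Of 17 listed assembly partners (emilins, latent TGF-beta binding proteins, other fibulins and proteoglycans), 15 were measured. From 7 to 14 d in WT tissue, 2 of these rose, the proteoglycan Bgn by 0.61 and Emilin1, whose product sits between elastin and microfibrils, by 0.69, and Emilin2 fell by 0.47. In Mmp13-/- tissue Ltbp2, a fibrillin-binding protein, rose by 1.15 (adjusted p = 0.00129), Bgn rose by 0.43 and the proteoglycan Vcan fell by 0.65. Ltbp2 then fell by 1.07 from 14 to 21 d in Mmp13-/- tissue (adjusted p = 0.0396), with the series in the model. Its group means there were 8.68 at 14 d and 7.88 at 21 d as deposited. In this step a single 14 d array per genotype links the series. The list medians from 7 to 14 d were 0.09 in WT and 0.13 in Mmp13-/- tissue.

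Of 5 enzymes that cross-link elastin, 4 were measured (Lox, Loxl1, Loxl3 and Loxl4) and none was called in any comparison. Their differences from 7 to 14 d ran from -0.58 to 0.21 in WT tissue. Lox, the lysyl oxidase best known for cross-linking both collagen and elastin, was at 0.10 (SE 0.13) in WT and at 0.11 (SE 0.13) in Mmp13-/- tissue over the days in which Eln rose. Of 11 proteinases that degrade elastin, 10 were measured. Mmp2 and Mmp9, which encode gelatinases, rose in WT tissue from 7 to 14 d by 0.57 and 1.90, and none was called in Mmp13-/- tissue. Mmp2 was lower in Mmp13-/- than in WT tissue at 14 d, at -0.92 (SE 0.13, adjusted p = 0.00626), a call that was lost without replicates 1 and 3 of WT. Among 11 fibrillar collagen genes 1, Col11a1, rose from 7 to 14 d, by 2.81 in WT and 2.95 in Mmp13-/- tissue, with list medians of 0.24 and -0.03.

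The genes of the set followed one another to different degrees over the 22 arrays, which share days, genotypes and hybridization series. As a description, Pearson's r was highest for Fbn2 with Mfap4, 0.91, and was 0.78 for this pair after group and series means were removed. Fbln5 had r of 0.85 with Mfap2 and with Mfap4. Eln had r of 0.83 with Fbln1, which dropped to 0.35 within groups and series. Mfap5 had r between -0.35 and 0.21 with the other 7 genes. After group and series means were removed, its r was 0.54 with Mfap2, 0.44 with Fbln1, 0.30 with Eln and 0.21 with Fbln5. With Mfap4 it was then -0.05, and with Fbn2 and with Fbln2 it was -0.30. The median over all 28 pairs was 0.34.

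Among 11789 genes with a mean signal above the median, Mfap4 was most like Mdk (r = 0.967), and Fbn2 was most like Myo7a (r = 0.968). Fbln2 was most like Acta2, the myofibroblast actin, at 0.920, followed by the collagen gene Col5a1 at 0.894. The genes most like Mfap2, Fbln5 and Eln were Nfia at 0.908, Hfe at 0.913 and Tmem98 at 0.886. Fbln1 was most like Olfml3, at 0.883. The closest gene to Mfap5 was Pcsk6, which encodes a proprotein convertase, at 0.794, lower than for any other gene of the set.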

How the data were processed

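The authors hybridized RNA of granulation tissue to Affymetrix 3' expression arrays of the mouse genome and normalized the signals with RMA. The deposited values are log2 signals per probe set with 2 decimals, for all 22 arrays in 1 table. Per the labels, series 1 started from 2 µg of RNA with one-cycle labelling and series 2 from 250 ng with a 3' IVT kit. Neither the RMA version nor whether RMA was run on both series together is given in the sources used here. Arrays have no read depth, and their number limits the precision.

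From these values a linear model of 6 group means and the hybridization series was fitted to all 22 arrays and 45037 probe sets (64 control probe sets left out) with R 4.3.3 and limma 3.58.1 (moderated by eBayes with 4.57 prior beside 15 residual degrees of freedom). The Benjamini-Hochberg adjustment took in every probe set of a comparison. Gene names come from the platform annotation, and the probe set of highest mean among those annotated to a gene alone stands for it. All 9 gene symbols are in the RefSeq gene table of GRCm38.p6. The array files name no genome build, so no probe set position is given. Overlap of groups was read from the deposited values, and the exact permutation test was on group means (two-sided). The fit was tested on simulated data. Alternatives were the model without the series, only the arrays compared, within 1 series, the replicate number as a block, another scaling, a filter on dim probe sets, a variance trend, the mean of a gene's probe sets, and each array left out. Leaving out WT 14 d replicates 1 and 3 together, and leaving out WT 21 d replicate 3 with the rest quantile normalized again, was added after the data had been seen.

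The 9 genes and the other gene lists were chosen with earlier results of these data known. Named are the 9 genes, Mmp13, up to 3 called genes of each other list and comparison, and up to 3 genes most correlated with each member. Lox, in a list with no call, was named after its values had been seen.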

Additional observations from a re-analysis of the deposited data

Results flagged for a closer look

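Among 32 groups of 4 arrays (8 genes in the 14 d and 21 d groups), 1 array lay far from the others of its group, where chance gives about 1 in 20. This was the log2 signal of Fbln1 on Mmp13-/- replicate 4 at 14 d, 6.00, with the other 3 arrays of the group at 6.77 to 6.91. It is the array of that group in hybridization series 2. The WT array of the same series and day was also the lowest of its group for Fbln1, at 6.41 against 6.98 to 7.29. On another probe set of Fbln1, 1422540_at, both arrays were instead the highest of their groups, at 6.87 against 6.06 to 6.36 in Mmp13-/- tissue and at 6.96 against 5.98 to 6.71 in WT. The signal difference between the 3' and 5' probe sets of Actb was 0.89 on the Mmp13-/- array, against 0.22 to 0.32 in the rest of its group, and 0.79 on the WT array, against 0.23 to 0.31. The part of the series and of transcript integrity was not tested.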

How the results depend on the processing

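Of 1977 values of the 8 genes under other settings, 1923 kept direction and side of the threshold, 19 lost a call, 9 gained one and 26 had the opposite sign, the latter in differences that were not called. With 1 array left out, the number of genes called from 7 to 14 d ran from 4 to 6 in WT and from 0 to 3 in Mmp13-/- tissue, and from 14 to 21 d in WT from 0 to 1, where Mfap2 was called without WT replicate 4 at 21 d (0.99, adjusted p = 0.0267). The genotype comparisons gave 0 under every setting run. Without the series term 1 gene, Fbn2, was called in WT from 14 to 21 d, Eln and Fbln1 in WT were at -0.38 each, Fbln2 in WT at 0.02 and Fbln1 in Mmp13-/- tissue at -0.34. Eln in WT was at -0.02 with only the arrays compared and within series 2. With all probe sets of a gene averaged, Fbln2 was at 0.17 for the genotypes at 14 d and at 0.11 at 21 d.

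Replicate numbers did not pair the mice, since deviations of same-numbered arrays correlated at -0.16 to 0.61 and 5 of 22 arrays correlated best with their own number. With the replicate block, 5 genes in WT and 3 in Mmp13-/- tissue were called from 7 to 14 d, no call changed, and from 14 to 21 d Eln and Fbln1 in WT were at -0.04 and -0.03 and Fbn2 and Mfap4 in Mmp13-/- tissue at -0.19 and -0.03.

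Signs that turned when 1 array was left out were those of the genotype differences of Fbln2 (-0.09 to 0.20), Fbln5 (-0.18 to 0.21) and Mfap4 (-0.05 to 0.61) at 7 d and of Eln (-0.25 to 0.06) and Fbln2 (-0.11 to 0.04) at 14 d, of Mfap5 from 7 to 14 d in Mmp13-/- tissue (-0.40 to 0.10), and from 14 to 21 d of Eln (-0.04 to 0.33) and Fbln2 (-0.08 to 0.05) in WT and of Fbn2 in Mmp13-/- tissue (-0.46 to 0.40). The series shifts ran from -0.83 to -0.47 for Eln and from -0.84 to -0.74 for Fbln1. The cause was not tested.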
